A study of Pan troglodytes with 50 samples.

Results

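The data described here are the 12 reporter libraries of the HAR library at stage N3, out of 50 samples in the series. They comprise 3 RNA and 3 DNA libraries from each of the chimpanzee lines Pt2A and Pt5C, and were chosen by their titles alone. The labels name the cells of stage N3 both as glial progenitors and as neural progenitors derived from induced pluripotent stem cells, with telencephalon as the region. No file read here reports the genes these cells express, so the cell type was not checked against markers. Each line comes from 1 animal, and 3 cultures per line were infected separately. In all groups cells were infected with integrating lentivirus for 4 days and carried an estimated 50 to 100 viral particles per cell. A difference between Pt2A and Pt5C is thus a difference between 2 lines, and p-values measure the spread between infections of a line. The question was which of the 2440 elements of the library drove more or less transcription than the negative controls at this stage, and whether both lines gave the same answer.

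Human accelerated regions (HARs) are sequences that are conserved across vertebrates but collected many substitutions on the human lineage, and a large share of them lie outside protein-coding exons near developmental genes. In a lentiviral massively parallel reporter assay, a short candidate sequence is placed beside a minimal promoter and drives a transcript that carries a barcode. The vector integrates into the genome, so RNA counts of the barcode are set over its DNA counts, a ratio above that of inert sequences is read as enhancer activity, and a ratio below it as less transcription than those sequences allow. Neural and glial progenitors of the telencephalon are the dividing cells from which neurons and glia of the forebrain arise, and many HARs have been studied as candidate enhancers of these cells.

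Every element was read through many barcodes, which are the sequences that carry the measurement. The 15-base barcodes with the most RNA counts are shown for 4 elements on which later results turn, as the files give them and with no base marked.
2xHAR.548 human tile 1 of 2, first barcode: tcaaccagagtcgtt
2xHAR.548 human tile 1 of 2, second barcode: ctaagcttggttgag
H3K27ac positive control 104, first barcode: ttagaccggacttat
H3K27ac positive control 104, second barcode: ttcgttggtcttatc
2xHAR.401 chimpanzee, first barcode: taggtaccggtcgtt
2xHAR.401 chimpanzee, second barcode: ttgaggaacctactt
HAR76 human tile 1 of 3, first barcode: tattcctaagtaatc
HAR76 human tile 1 of 3, second barcode: tgcttatcctggact
The first barcode of 2xHAR.548 had 4798 RNA and 436 DNA counts over the 3 Pt2A cultures and 2061 and 495 in Pt5C. After scaling this gave log2 ratios of 1.92 and 2.13 above the negative controls. The first barcode of H3K27ac positive control 104 had log2 ratios of 0.49 in Pt2A and 1.66 in Pt5C, and that of 2xHAR.401 chimpanzee 1.41 and 0.37. The second barcode of H3K27ac positive control 104 likewise differed, at 0.28 and 1.46, whereas that of 2xHAR.401 chimpanzee gave 1.37 and 1.30, with little difference between the lines. The first barcode of HAR76 human tile 1 of 3, an element with low activity, stood at 0.20 and -0.066. That value lay above the median of its barcodes, which was -0.29 in Pt2A and -0.39 in Pt5C.

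The library held 205318 barcodes, with a median of 84 per element (range 22 to 100). DNA libraries held 6641422 to 10091411 counts, Pt2A RNA libraries 20001868 to 29207558 and Pt5C RNA libraries 5410033 to 16035684, so Pt5C RNA was the shallower measurement. Activity is given throughout as log2 of RNA over DNA, and its zero is the median of the 120 negative controls, as named in the files. Replicate cultures correlated over the 2440 elements at Pearson r = 0.929 to 0.931 in Pt2A and 0.927 to 0.940 in Pt5C, and cultures of different lines at 0.738 to 0.776. The lines' fitted activities correlated at r = 0.795 (Spearman rho = 0.815). These correlations are across elements that share libraries and are given as descriptions.

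Most elements differed little from the negative controls, and a few stood far above them. By the quasi-likelihood test of edgeR (Benjamini-Hochberg adjusted p under 0.05), 961 elements (39.4%) were called higher and 711 (29.1%) lower than the controls' median in Pt2A. In Pt5C 938 (38.4%) were called higher and 879 (36.0%) lower. Both lines gave a higher call for 739 elements (30.3%) and a lower call for 587 (24.1%), and opposite calls for 64 (2.62%), while 341 (14.0%) were called in neither. The mean of the 2 lines was called higher for 1063 elements (43.6%) and lower for 883 (36.2%), yet it passed 0.5 on the log2 scale for 54 (2.21%) and 1 for 8 (0.328%). It was under -0.25 for 11 (0.451%). Of the negative controls themselves, 40 were called higher and 46 lower in Pt2A, so a call marks a difference from their median and not from their range.

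Calls rest on the spread between cultures, which all received the same barcoded copies. The median SD of single cultures, over the 3 of a line, was 0.038 in Pt2A and 0.043 in Pt5C. For the 3 cultures summed, the median standard error from the spread between the barcodes of an element was 0.052 and 0.056. An SD of single cultures is larger than the error of their mean, so the 2 are not like measures. With this second error, both lines gave a higher call for 429 elements in place of 739 and a lower call for 241 in place of 587. A further measure came from 107 pairs of tiles of the same allele whose positions differ by at most 5 bases. Their activities differed by a median of 0.076 on the log2 scale (lowest 0.00018, highest 0.42), with a difference under 0.1 in 65 pairs. Differences of this size between elements therefore occurred between nearly identical inserts with separate barcodes.

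To ask which elements left the range of the controls, each culture's activity was compared with the 95th and 5th percentiles of the 120 negative controls in that culture. The upper bound lay between 0.25 and 0.38 and the lower between -0.16 and -0.22. In all 6 cultures 71 elements (2.91%) lay above and 9 (0.369%) below. The 71 comprised 28 human and 25 chimpanzee HAR elements, 2 HAR variants, 12 H3K27ac positive controls, 1 EnhancerFinder positive control and 3 of the negative controls. With the 99th and 1st percentiles as bounds, 13 lay above and 2 below.

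The classes of elements overlapped widely. Human HAR elements (n = 1006) had a median activity of 0.027 (quartiles -0.076 and 0.14) and chimpanzee HAR elements (n = 996) one of 0.022 (-0.075 and 0.14), beside 0.017 for all 2440 elements. Human elements were called higher in both lines in 31.7% and chimpanzee elements in 30.4% of cases, close to the 30.3% of all elements. Negative controls reached 23.3%. The 124 positive controls chosen for H3K27ac, a histone mark of active enhancers and promoters, had a median of 0.056, and 37.1% were called higher in both lines. Of these 9.68% lay above the negative-control range in all 6 cultures, against 2.91% of all elements.

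Smaller control classes spanned the same scale. The 9 ENCODE positive controls had the highest median of the classes with more than 4 elements, 0.24, and 5 of them were called higher in both lines. However, 0 of them lay above the negative-control range in all 6 cultures. ENCODE positive controls 9 and 4, the highest of the class by the mean of both lines, overlap on chromosome X. The 10 EnhancerFinder positive controls, which were predicted enhancers, had a median of 0.076, and 4 were called higher in both. The 84 negative controls chosen for H3K27me3, a mark of Polycomb repression, had a median of 0.00055, and the 34 ENCODE negative controls one of 0.013. A pair of negative controls was among the more active elements of the library. ENCODE negative control 18 (chromosome 2, 97532801 to 97532971) had values of 1.03, 1.07 and 1.03 in the Pt2A cultures and 0.55, 0.51 and 0.51 in Pt5C. N2 H3K27me3 negative control 6 had means of 0.65 in Pt2A and 0.76 in Pt5C. Differences between classes were not tested, since elements of a class are not replicates.

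**Figure D1:**
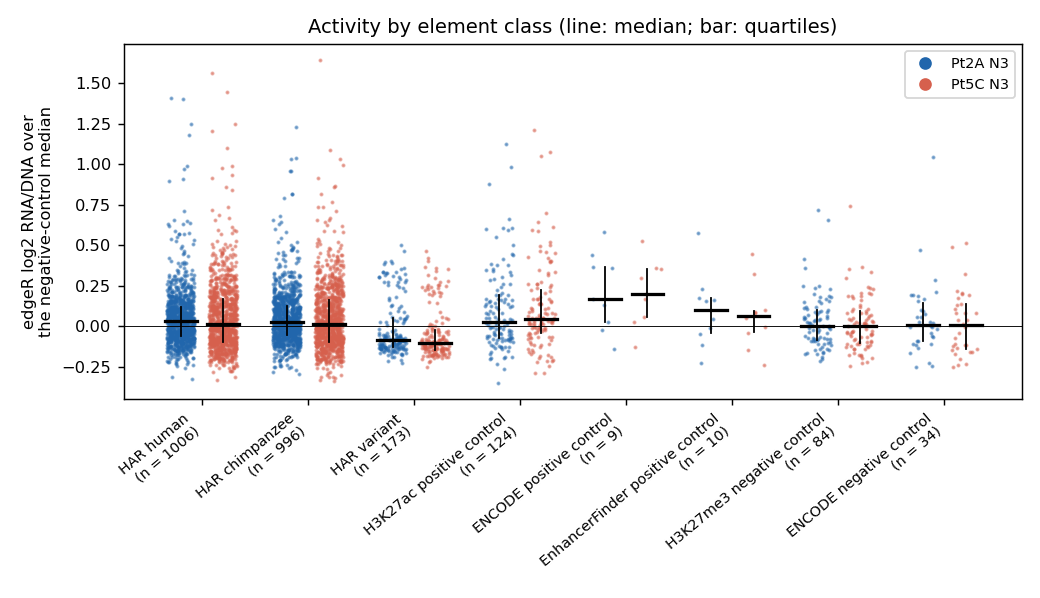
Activity of each element by class at N3, as edgeR log2 RNA over DNA above the negative-control median (y axis), with 1 point per element, Pt2A in blue and Pt5C in red, black lines for medians and bars for quartiles. The class medians of human and chimpanzee HAR elements, 0.027 and 0.022 in the mean of both lines, lie close to the zero of the negative controls, with a tail of active elements above 0.5.

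Among single elements, human alleles of 2xHAR.548 and 2xHAR.10 had the highest activity. Named here are the 12 highest and 8 lowest elements by the mean of both lines among those called in both with all 6 cultures on that side of zero, which held for 724 elements (29.7%) above and 560 (23.0%) below. Coordinates are on GRCh37 (hg19), 1-based, from the element names, and neighbouring genes are background knowledge, since no annotation of that build was read. The activity of 2xHAR.548 human tile 1 of 2 (chromosome 3, 70655294 to 70655464), in the region of FOXP1, a transcription factor of neuronal differentiation, was 1.30, 1.26 and 1.20 in the Pt2A cultures. In the Pt5C cultures it was 1.55, 1.62 and 1.57. The element thus drove 2.38 times the RNA per DNA of the negative controls in Pt2A and 2.96 times in Pt5C, with Pt5C higher in all 3 cultures. Tile 2 of the same human allele was the reverse, with 1.45, 1.47 and 1.30 in Pt2A and 0.92, 0.98 and 0.91 in Pt5C. The lines did not overlap for either tile.

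2xHAR.10 lies at PAX8, a transcription factor of kidney, thyroid and hindbrain development. Its human tile 1 (chromosome 2, 113992950 to 113993120) gave 1.14, 1.18 and 1.22 in Pt2A and 1.25, 1.22 and 1.31 in Pt5C. Its human tile 2 gave 1.33, 1.37 and 1.50 in Pt2A but 1.00, 0.98 and 1.01 in Pt5C, and its chimpanzee tile 2 was likewise higher in Pt2A, at 1.18, 1.22 and 1.29 against 0.79, 0.88 and 0.83. The chimpanzee tile 1, outside the named elements, lay at 0.44 in Pt2A and 0.67 in Pt5C. All 4 elements of this HAR were called higher in both lines.

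2xHAR.176 (chromosome 4, 146403095 to 146403265), at SMAD1, an effector of BMP signalling, was active as both alleles. The human allele stood at 0.99 ± 0.051 in Pt2A and 1.22 ± 0.033 in Pt5C (SD, n = 3 cultures each), and the chimpanzee allele at 1.03 ± 0.034 and 1.10 ± 0.026. 2xHAR.149 human (chromosome 7, 1277066 to 1277236), next to UNCX, a homeobox factor, reached 0.97 ± 0.032 and 0.87 ± 0.021, and its chimpanzee allele 0.68 and 0.74. 2xHAR.275 chimpanzee (chromosome 17, 3417157 to 3417327) reached 0.95 ± 0.016 and 0.74 ± 0.081. Both alleles of these 3 HARs were called higher in both lines.

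H3K27ac positive control 11 (chromosome 11, 133907201 to 133907371) was the one control among the 12, with 1.12 ± 0.037 in Pt2A and 1.22 ± 0.019 in Pt5C. The remaining members of the 12 were both alleles of HAR156 (chromosome 8, 116791662 to 116791832), whose mean of 0.98 for chimpanzee and 0.88 for human joined a low value in Pt2A to a high one in Pt5C. Over the 12 elements the largest adjusted p of edgeR was 1.57e-51 in Pt2A and 4.49e-51 in Pt5C. The 10 elements other than those of HAR156 lay above the negative-control range in all 6 cultures. The difference between lines was called for each of the 12, ranging from 0.069 for 2xHAR.176 chimpanzee to 1.34 for HAR156 chimpanzee.

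**Figure D2:**
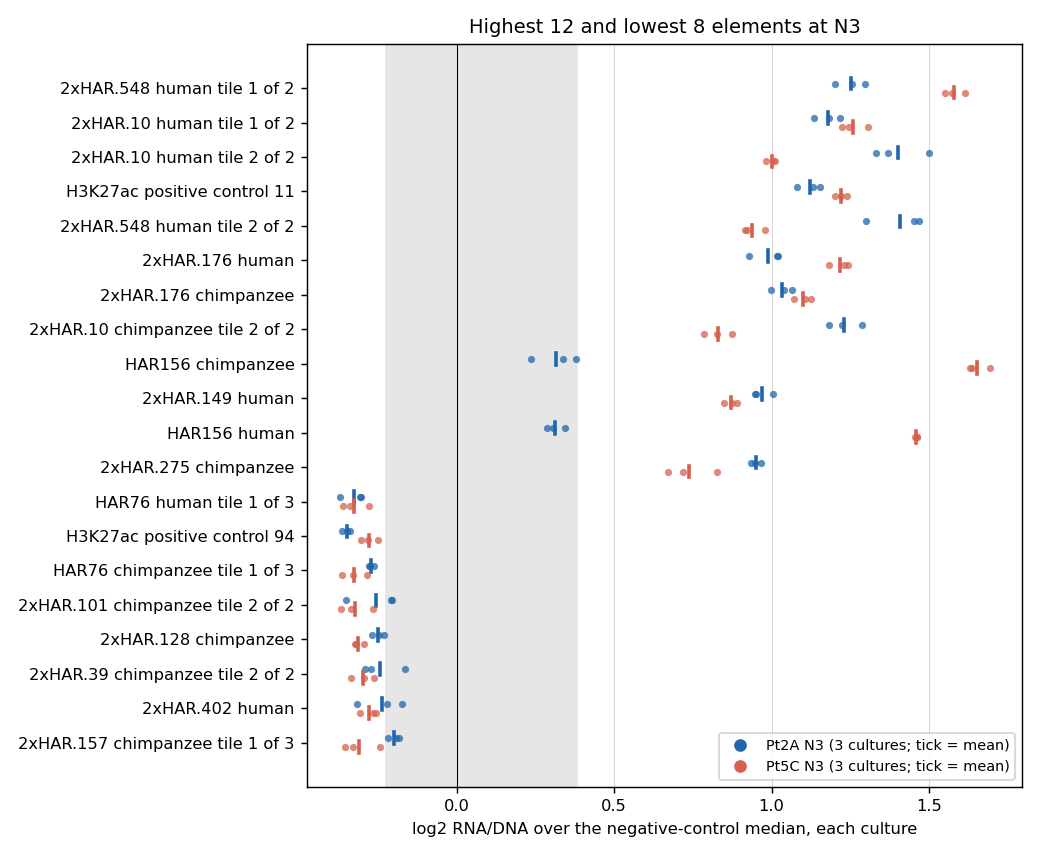
Activity in each culture (x axis, log2 RNA over DNA above the negative-control median) of the 12 highest and 8 lowest elements, with 3 Pt2A cultures in blue, 3 Pt5C cultures in red, ticks for line means, and a grey band from the lowest 5th to the highest 95th percentile of the negative controls over cultures. The high elements reach 1.62 for 2xHAR.548 human tile 1 of 2 and 1.69 for HAR156 chimpanzee, while the low elements lie between -0.37 and -0.17. Some cultures of the low elements fall inside the band, whose lower end is -0.22.

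The low side was shallower. HAR76 human tile 1 of 3 (chromosome X, 85465762 to 85465932), in DACH2, a transcriptional cofactor, had the lowest mean activity of the 2440 elements, with -0.31, -0.30 and -0.37 in Pt2A and -0.34, -0.36 and -0.28 in Pt5C. This was 0.79 times the negative controls in Pt5C, and the lines overlapped. The chimpanzee tile 1 gave -0.27 ± 0.0076 in Pt2A and -0.33 ± 0.040 in Pt5C, so both alleles were low. H3K27ac positive control 94 (chromosome 1) stood at -0.35 ± 0.013 and -0.28 ± 0.027 although chosen as a positive control.

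The other low elements were HAR alleles. 2xHAR.101 chimpanzee tile 2 of 2 (chromosome 9, 16708881 to 16709051), in BNC2, a zinc finger gene, stood at -0.26 ± 0.083 and -0.32 ± 0.051. 2xHAR.128 chimpanzee (chromosome 16), in RBFOX1, which encodes a splicing regulator of neurons, stood at -0.25 ± 0.019 and -0.31 ± 0.017. 2xHAR.402 human (chromosome 4, 20340080 to 20340250), in SLIT2, which encodes an axon guidance protein, stood at -0.24 ± 0.073 and -0.28 ± 0.027. 2xHAR.39 chimpanzee tile 2 of 2 (-0.24 and -0.30) and 2xHAR.157 chimpanzee tile 1 of 3 (-0.20 and -0.31) completed the group. The largest adjusted p (edgeR) over the 8 was 1.80e-10 in Pt2A and 8.27e-16 in Pt5C, and 5 of them lay below the negative-control range in all 6 cultures. A line difference was called for 2 of the 8, H3K27ac positive control 94 (0.074) and 2xHAR.157 chimpanzee tile 1 (-0.11, as Pt5C minus Pt2A).

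By region, 329 of 714 HARs (46.1%) had at least 1 human or chimpanzee element called higher in both lines and 257 (36.0%) had one called lower. The shares over all single elements were 30.3% and 24.1%, and a HAR with several elements has more occasions for a call. In 126 HARs (17.65%) every element was called higher in both lines, and 176 (24.65%) had no element called in both. An element above the negative-control range in all cultures was found in 29 HARs (4.06%). Of 839 pairs of human and chimpanzee alleles of the same tile, both alleles were called higher in 175 (20.9%) and both lower in 98 (11.7%). Human alone was called higher in 86 (10.25%) and chimpanzee alone in 76 (9.06%), which does not test a difference between alleles. Activities of the 2 alleles correlated across pairs at r = 0.761 in Pt2A and 0.834 in Pt5C (n = 839). In 7 pairs (0.834%) 1 allele was called higher and the other lower in both lines.

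Activity could change over a short step along a HAR. Long HARs were covered by overlapping tiles of 171 bases, giving 574 pairs of neighbouring tiles of 1 allele with overlaps of 15 to 170 bases. Activities of neighbours correlated at r = 0.728 for an overlap of at least 120 bases (n = 237), at 0.098 for 60 to 119 bases (n = 209) and at 0.591 for less than 60 bases (n = 128), where the rank correlation was 0.263. Both tiles were called higher in both lines in 90 pairs and lower in 37. In 35 pairs (6.10%) 1 tile was called higher and the other lower in both lines.

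The largest steps, singled out after their values were seen, ran in the same direction in both alleles of 3 HARs, but not of 2xHAR.10. In 2xHAR.101 chimpanzee tile 1 of 2 (chromosome 9, 16708804 to 16708974) gave 0.50, 0.45 and 0.39 in Pt2A and 0.41, 0.58 and 0.51 in Pt5C, while the overlapping low tile 2 was named above. The human tiles of 2xHAR.101 differed in the same direction, at 0.28 and -0.13 in the mean of both lines. This step was larger in Pt5C (0.45 and -0.20) than in Pt2A (0.10 and -0.056). In Pt2A the human tile 2 did not pass the test (adjusted p of edgeR = 0.211). 2xHAR.127 (chromosome 3) stepped from 0.49 in tile 1 to -0.14 in tile 2 for the human allele and from 0.32 to -0.19 for the chimpanzee allele, with 87 shared bases. In 2xHAR.3 (chromosome 2), whose tiles share 130 bases, tile 1 was low and tile 2 high, at -0.23 and 0.32 for human and -0.24 and 0.26 for chimpanzee. In 2xHAR.10 the chimpanzee tiles stepped from 0.55 to 1.03 in the mean of both lines, while the human tiles gave 1.21 and 1.19. The Pt2A value of 2xHAR.3 chimpanzee tile 2 of 2 (0.11) did not pass the test (adjusted p of edgeR = 0.0680).

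Near-identical tiles show how far such steps can be read. The 2 human tiles of 2xHAR.238 are shifted by 1 base and gave 0.53 and 0.54. The 2 human tiles of HAR98 are also shifted by 1 base and gave 0.033 and 0.43, and those of 2xHAR.133, shifted by 4 bases, gave 0.34 and -0.075. Of the 107 near-identical pairs, 2 were called in opposite directions in both lines, those of 2xHAR.133 human and 2xHAR.25 chimpanzee. The sequences of the inserts were not read here, so a shift is known from the element names only.

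A set of 7 HARs was followed whatever the result: 2xHAR.142, 2xHAR.238, 2xHAR.183, 2xHAR.548, 2xHAR.20, 2xHAR.164 and 2xHAR.170. The first (chromosome 14, 34048648 to 34048818) is intronic in NPAS3, which encodes a neuronal bHLH-PAS transcription factor. 2xHAR.142 lay below the median of the negative controls in every culture, at -0.22 ± 0.019 in Pt2A and -0.20 ± 0.015 in Pt5C for human and -0.17 ± 0.016 and -0.16 ± 0.0087 for chimpanzee. Neither allele lay below the negative-control range in all 6 cultures. Of its 123 variants, which combine human and chimpanzee bases, 113 were called lower in both lines (91.9%, against 24.1% of all elements), with a median of -0.12 (lowest -0.23, highest 0.018). By edgeR at an adjusted p under 0.05, 0 of these variants were called higher in either line, and the highest, variant 7 of 128, had adjusted p = 0.101 in Pt2A and 0.955 in Pt5C. The variants share almost all of their sequence and are not independent of each other. 2xHAR.157, which lies elsewhere in NPAS3, was also low, with all 6 of its tiles between -0.26 and -0.076 in the mean of both lines.

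2xHAR.238, near GLI2, a transcription factor of Hedgehog signalling, was active. Its human tiles gave 0.57 ± 0.022 and 0.57 ± 0.040 in Pt2A and 0.49 ± 0.077 and 0.51 ± 0.038 in Pt5C, and the chimpanzee sequence 0.23 ± 0.021 and 0.15 ± 0.013. Of its 30 variants, 29 were called higher in both lines (96.7%, against 30.3% of all elements), with a median of 0.28 and a range of 0.068 to 0.48. The one exception, variant 10 of 32, was called in Pt2A and had adjusted p = 0.608 in Pt5C (edgeR). The variants thus ran from below the chimpanzee sequence to just under the human tiles.

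2xHAR.183 (chromosome 2, 11531871 to 11532041) was active in both lines and more so in Pt5C. The human allele gave 0.47, 0.47 and 0.54 in Pt2A and 1.04, 1.13 and 1.17 in Pt5C, and the chimpanzee allele 0.44 ± 0.020 and 1.01 ± 0.034. 2xHAR.548 chimpanzee had 0.50 ± 0.069 and 1.04 ± 0.027 in tile 1 and 0.33 ± 0.084 and 0.39 ± 0.076 in tile 2. The chimpanzee tile 1 thus shared the higher Pt5C value of its human counterpart, and the chimpanzee tile 2 lacked a called line difference (0.066, adjusted p of edgeR = 0.171).

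2xHAR.20, near EN1, a homeobox factor of the midbrain and limb, was covered by 4 tiles. Tile 4 had the highest mean of both lines for each allele, at 0.18 ± 0.036 in Pt2A and 0.46 ± 0.073 in Pt5C for human and 0.14 ± 0.016 and 0.37 ± 0.034 for chimpanzee, and tile 1 had means of 0.028 for human and -0.058 for chimpanzee. 2xHAR.164 and 2xHAR.170 (the latter in GALNT10, a glycosyltransferase gene) were called higher in Pt2A and not in Pt5C. The difference itself was called for human 2xHAR.170 (-0.20, adjusted p of edgeR = 3.61e-07) and for both alleles of 2xHAR.164 (-0.10 for chimpanzee and -0.11 for human, adjusted p = 0.00702 and 0.00653), but not for chimpanzee 2xHAR.170 (-0.092, adjusted p = 0.174). Differences of this size also occurred between the near-identical tiles given above. Those tiles have separate barcodes, however, whereas both lines read an element through the same barcodes, so the 2 measures are unlike. In Pt2A the activity of 2xHAR.164 human was 0.088 beside a standard error between barcodes of 0.050. That of 2xHAR.170 chimpanzee was 0.10 beside 0.050, so both calls lay close to this error. 2xHAR.164 chimpanzee (0.15 beside 0.045) and 2xHAR.170 human (0.24 beside 0.051) stood further from it. Of the 14 variants of 2xHAR.164 in the library 2 were called higher in both lines (14.3%), as was 1 of the 6 variants of 2xHAR.170 (16.7%), both below the 30.3% of all elements.

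The 2 lines were then compared directly, with the difference of RNA over DNA centred by TMM. edgeR called 714 elements (29.3%), 386 (15.8%) higher in Pt5C and 328 (13.4%) higher in Pt2A. With the negative controls as centre the split turned to 329 higher in Pt5C and 446 higher in Pt2A. Pt2A and Pt5C cultures were without overlap in 990 elements (40.6%), and 656 of these (26.9% of all) were also called. The called difference exceeded 0.5 on the log2 scale for 17 elements (0.697%). With the spread between barcodes as error 365 and 311 elements were called. Human HAR elements were called in 30.8%, chimpanzee HAR elements in 29.3% and H3K27ac positive controls in 44.4%, while 9.83% of the HAR variants were called.

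HAR156 showed the largest difference. Its chimpanzee allele gave 0.23, 0.34 and 0.38 in the Pt2A cultures and 1.64, 1.69 and 1.63 in Pt5C, and its human allele 0.34, 0.30 and 0.29 against 1.46, 1.46 and 1.46. No culture of Pt2A came near those of Pt5C for either allele. Of 95 barcodes of the chimpanzee allele with at least 10 DNA counts in each line, 94 were higher in Pt5C, so nearly all barcodes carried the difference. H3K27ac positive control 104 (chromosome 5, 107273101 to 107273271) was at the level of the negative controls in Pt2A, with -0.014, 0.081 and 0.017 (adjusted p of edgeR = 0.215), and active in Pt5C, with 1.10, 1.08 and 1.06. In 82 of its 86 barcodes the ratio was higher in Pt5C.

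2xHAR.9 (chromosome 20, 708949 to 709119) differed between lines as chimpanzee allele, at 0.30 ± 0.073 in Pt2A and 0.93 ± 0.010 in Pt5C, whereas its human allele gave 0.40 in Pt2A and 0.41 in Pt5C (line difference 0.011, adjusted p of edgeR = 0.775). The human allele of 2xHAR.183, described above, was the fifth of the elements higher in Pt5C (0.62). The largest adjusted p over these 5 was 7.67e-78 (edgeR), with Pt5C higher in all 3 cultures each.

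Higher in Pt2A was first 2xHAR.348 chimpanzee (chromosome 2, 190306145 to 190306315), with 1.01, 1.02 and 1.07 against 0.34, 0.30 and 0.30. Its human allele also lay higher in Pt2A, at 0.62 against 0.26. H3K27ac positive control 128 (chromosome 10) gave 0.84, 0.92 and 0.86 against 0.15, 0.19 and 0.20. ENCODE negative control 18, with values given above, differed by -0.52 as Pt5C minus Pt2A.

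For the other elements higher in Pt2A, the 2 alleles parted. 2xHAR.401 chimpanzee (chromosome 17, 5667563 to 5667733) gave 0.76, 0.87 and 0.83 in Pt2A and 0.14, 0.18 and 0.12 in Pt5C, while its human allele lay at -0.082 and -0.015. 2xHAR.247 chimpanzee was above the median of the negative controls in Pt2A (0.34 ± 0.064) and below that median in Pt5C (-0.17 ± 0.016), and its human allele stood at -0.0017 and -0.015. The largest adjusted p over the 5 elements higher in Pt2A was 8.45e-26 (edgeR). More Pt2A than Pt5C RNA per DNA was found in 77 of 84 barcodes of 2xHAR.348 chimpanzee, 86 of 88 of 2xHAR.401 chimpanzee and 65 of 74 of ENCODE negative control 18. An interaction of allele and line was not tested.

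**Figure D3:**
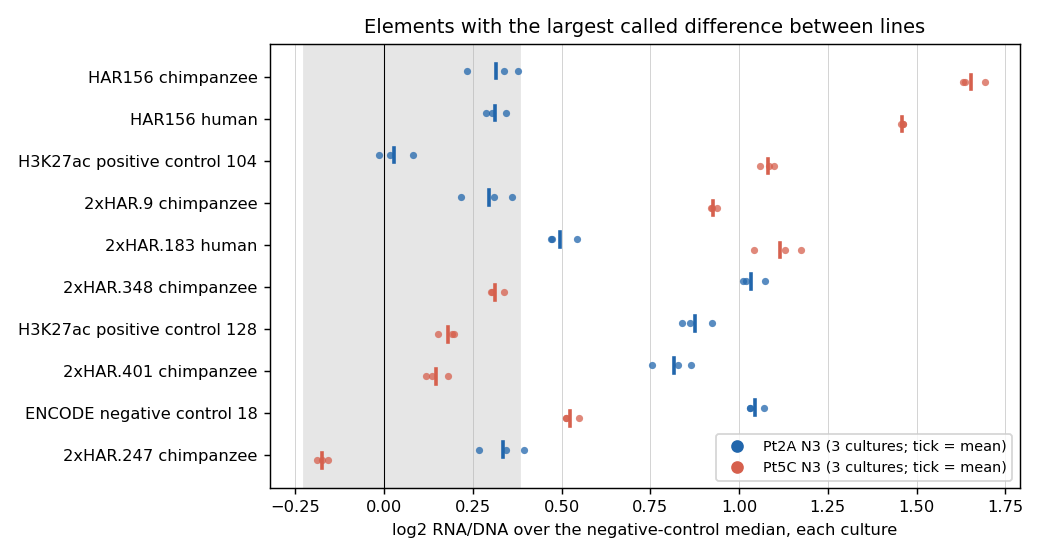
Activity in each culture (x axis, log2 RNA over DNA above the negative-control median) of the 5 elements with the largest called difference in each direction between Pt2A (blue) and Pt5C (red), with ticks for line means and the grey band of the negative controls. The widest gap is that of HAR156 chimpanzee, from 0.38 for the highest Pt2A culture to 1.63 for the lowest Pt5C culture.

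**Figure D4:**
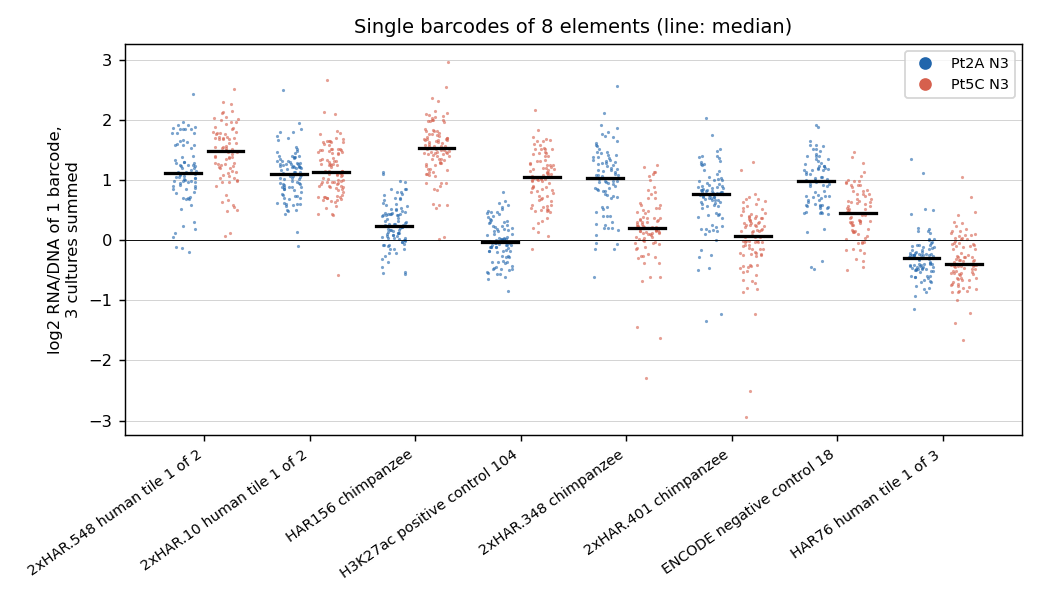
Log2 RNA over DNA of single barcodes (y axis, 3 cultures summed, pseudocount 1, at least 10 DNA counts in both lines) for 8 elements in Pt2A (blue) and Pt5C (red), with black lines for medians. For HAR156 chimpanzee the median is 0.25 in Pt2A and 1.53 in Pt5C, and for HAR76 human tile 1 of 3 both medians, -0.29 and -0.39, lie below zero.

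The values that move with the lines were measured beside these results. Over the 2440 elements the SD of the RNA difference between lines was 0.12 and that of the DNA difference 0.067 on the log2 scale, and the 2 correlated at r = 0.167. Activity in the mean of both lines correlated with log2 DNA count at r = -0.166 (rho = -0.331). With the DNA of the other line as denominator, elements higher in Pt2A numbered 540 in place of 328 and elements higher in Pt5C 577 in place of 386, and each of the 10 named elements kept its direction and call. The part of DNA representation and of the lower Pt5C RNA depth in the remaining calls was not tested.

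The same stage and line were also read with a second library. The permutation library was infected into Pt2A at N3 in 3 cultures and holds 438 elements that are also in the HAR library, 265 controls and 173 HAR variants, with 0 barcodes in common. Activities there were set to zero at the median of the shared elements, and those of the HAR library likewise. Over the shared elements the libraries correlated at r = 0.681 (rho = 0.574), at 0.601 for controls and 0.851 for HAR variants. The permutation library correlated at 0.536 with Pt5C N3. Activities were more compressed there, with an SD over elements of 0.11 against 0.21.

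Of all 1049 elements of the permutation library, 684 (65.2%) were called higher and 155 (14.8%) lower by edgeR with this zero. Of the 438 shared elements, 170 were called higher and 146 lower in the permutation library. In Pt2A N3 of the HAR library 151 of them were called higher and 208 lower (calls as above, against its negative controls). Higher in both libraries were 111, which was 73.5% of the higher calls of the HAR library and 65.3% of those of the permutation library. Lower in both were 110, or 52.9% and 75.3%, and 40 were called in opposite directions. With the TMM centre as zero 71 were higher and 185 lower in both.

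The 3 highest shared elements called in both libraries had lower values in the permutation library. H3K27ac positive control 11 gave 0.60, 0.65 and 0.50 there against 1.12, 1.17 and 1.17. H3K27ac positive control 96 gave 0.66, 0.58 and 0.47 against 0.99, 1.06 and 1.00. ENCODE negative control 18 gave 0.62, 0.54 and 0.47 against 1.07, 1.11 and 1.04. This negative control was thus above the shared median with both sets of barcodes, and no culture of one library overlapped those of the other. Elements of the line comparison were shared too. H3K27ac positive control 104 stood at 0.073 ± 0.013 (SD, n = 3) in the permutation library, which was called higher (adjusted p of edgeR = 1.28e-06), against 0.059 ± 0.055 in the HAR library on the same zero. H3K27ac positive control 94, the low control, stood at -0.032 ± 0.026 there against -0.32 ± 0.011. H3K27ac positive control 128 stood at 0.22 ± 0.024 against 0.91 ± 0.052. Its Pt5C mean in the HAR library, on the zero of the negative controls, was 0.18. For ENCODE negative control 18 the permutation mean was 0.54 and that Pt5C mean 0.52. The high Pt2A level of both was thus not reached with the second barcodes, in a library whose activities were more compressed. Whether line or library sets these gaps was not tested.

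**Figure D5:**
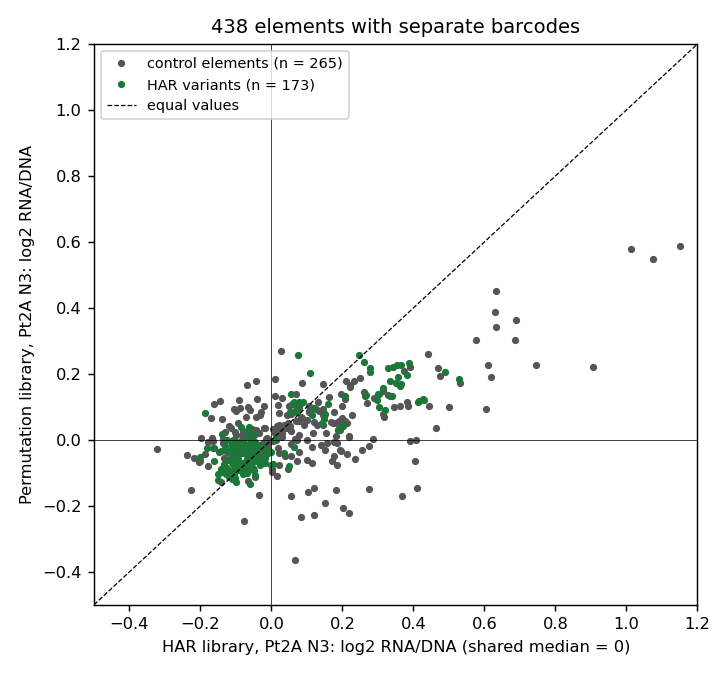
Activity of 438 shared elements in Pt2A N3 in the HAR library (x axis) and in the permutation library (y axis), both as log2 RNA over DNA with the shared median at zero, controls in grey, HAR variants in green and a dashed line of equal values. The 3 highest points, at 0.54 to 0.58 on the y axis and 1.01 to 1.15 on the x axis, lie well under the line.

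Other libraries of the series give the setting of the N3 values. The HAR control library was infected into Pt2A at N2 and holds the same elements beside others. Its activity over the 2440 elements correlated at r = 0.743 with Pt2A N3 and at 0.882 with Pt5C N3. Pt5C N2 correlated at 0.736 and 0.906. The HAR library in Pt2A at N2 stood apart, with 0.104 and 0.042. HAR156 chimpanzee, low in Pt2A at N3, was high in Pt2A at N2 with the HAR control library, at 2.09 ± 0.045 (SD, n = 3 cultures), and its human allele reached 1.90 ± 0.019 there. With the HAR library at N2 the chimpanzee allele stood at 0.61 in Pt2A and 1.51 in Pt5C. 2xHAR.9 chimpanzee and 2xHAR.183 human, also lower in Pt2A than in Pt5C at N3, stood at 1.10 ± 0.0097 and 1.34 ± 0.056 in the HAR control library. A low Pt2A value of these elements at N3 was thus not found with the HAR control library in Pt2A at N2. In the HAR library at N2, however, 2xHAR.9 chimpanzee stood at 0.21 in Pt2A and 0.51 in Pt5C. 2xHAR.183 human stood at -0.074 and 0.77 there, so both were lower in Pt2A. Elements higher in Pt2A at N3 were also lower in Pt2A there. Such were 2xHAR.348 chimpanzee (-0.21 in Pt2A and 0.12 in Pt5C) and H3K27ac positive control 128 (-0.080 and 0.064). ENCODE negative control 18 (0.28 and 0.41) and 2xHAR.247 chimpanzee (-0.15 and -0.13) were likewise lower. Of the 5 named, only 2xHAR.401 chimpanzee was not, as given below. H3K27ac positive control 104 was low in both Pt2A libraries at N2, at 0.12 ± 0.040 in the HAR control library and -0.041 in the HAR library, beside 0.85 in Pt5C N2. 2xHAR.401 chimpanzee, active in Pt2A N3, stood at 0.67 ± 0.036 in the HAR control library, but at 0.054 in Pt2A N2 and 0.034 in Pt5C N2 with the HAR library. Whether stage or library sets these differences was not tested.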

How the data were processed

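The values deposited by the authors are raw counts of each barcode, in 1 file per library that also names the element. A unique molecular identifier of 10 bases was attached in the first PCR, per the labels' protocols. The sources used here do not say if it was used in counting, nor how a barcode was linked to its element. The submitters' processing notes name GRCh37. The barcode counts of each element were added up within a library. Elements needed 10 or more barcodes on average in the N3 DNA libraries and had to pass filterByExpr, and all 2440 did. The 12 N3 libraries were fitted together with edgeR 4.0.16 in R 4.3.3 (TMM, quasi-likelihood test, two-sided, Benjamini-Hochberg over all elements), with no replicate block. Zero was the median of the 120 negative controls in each line, and the line difference was centred by TMM. Values per culture set RNA over the DNA library of the same number, with a pseudocount of 0.5. The permutation library was fitted separately. DESeq2 1.42.0 and other settings served as alternatives.

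On simulated counts for the 2440 elements, the fit called 34 of 34 elements raised by 0.2 on the log2 scale in each line and 8 of 2140 unchanged ones in Pt2A (14 in Pt5C). For the line difference it called 50 of 50 elements raised by 0.3 and 4 of 2340 unchanged ones. The simulated counts held the spread between cultures only, with no spread between barcodes and with every negative control unchanged. They therefore do not measure how often a call in the real data comes from the barcodes of an element.

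Named were the 12 highest and 8 lowest elements called in both lines with 6 cultures on 1 side of zero, the 5 largest called line differences in each direction without overlap of cultures, the 3 highest shared elements of the permutation library, every element class, and the 7 HARs listed in the text. The elements, lists and tests were chosen with earlier results of these data known. A further 4 elements have control names of another form, 2 positive and 2 negative, and the 2 negative ones are among the 120. Their medians were 0.027 in Pt2A and 0.19 in Pt5C. The sequences of HAR elements were not analysed here, nor were H3K27ac peaks or genes near elements.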

Additional observations from a re-analysis of the deposited data

Results flagged for a closer look

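Each result here is a difference between the lines, as Pt5C minus Pt2A on the log2 scale, that passed the edgeR test of the difference itself. Of the 714 elements called among all 2440, listed are those among the 12 highest and 8 lowest elements, the 5 largest differences in each direction and the 7 HARs followed whatever the result. In Pt5C the activity was higher for HAR156 chimpanzee (1.34), HAR156 human (1.15), H3K27ac positive control 104 (1.06), 2xHAR.9 chimpanzee (0.63), 2xHAR.183 human (0.62) and chimpanzee (0.57), and 2xHAR.548 chimpanzee tile 1 (0.54). Smaller positive differences were those of 2xHAR.548 human tile 1 (0.33), 2xHAR.20 human tile 4 (0.27), 2xHAR.176 human (0.23), 2xHAR.20 chimpanzee tile 4 (0.22), H3K27ac positive control 11 (0.10), 2xHAR.10 human tile 1 (0.081), H3K27ac positive control 94 (0.074) and 2xHAR.176 chimpanzee (0.069).

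In Pt2A it was higher for 2xHAR.348 chimpanzee (-0.71), H3K27ac positive control 128 (-0.70), 2xHAR.401 chimpanzee (-0.66), ENCODE negative control 18 (-0.52), 2xHAR.247 chimpanzee (-0.49), 2xHAR.548 human tile 2 (-0.48), 2xHAR.10 human tile 2 (-0.41) and 2xHAR.10 chimpanzee tile 2 (-0.40). Smaller negative differences were those of 2xHAR.20 chimpanzee tile 2 (-0.24), 2xHAR.275 chimpanzee (-0.21), 2xHAR.170 human (-0.20), 2xHAR.20 human tile 3 (-0.13), 2xHAR.164 human (-0.11), 2xHAR.157 chimpanzee tile 1 (-0.11), 2xHAR.164 chimpanzee (-0.10) and 2xHAR.149 human (-0.095). Other elements mentioned in the text also differed by this test, among them 2xHAR.348 human (-0.36), 2xHAR.275 human (-0.37), 2xHAR.10 chimpanzee tile 1 of 2 (0.23), N2 H3K27me3 negative control 6 (0.098) and 2xHAR.149 chimpanzee (0.069). The 2 human tiles of 2xHAR.548 differed between lines in opposite directions, as did tiles 1 and 2 of 2xHAR.10 human.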

How the results depend on the processing

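Of the named elements' values under the alternatives, 873 kept their direction and side of the threshold, 6 gained a call and 3 lost one, and 0 reversed. The calls gained and lost were all for the mean of both lines. A count of lost calls in a single line is not given. Among the counts and class medians 316 moved little and 31 moved further. RNA and DNA libraries of the same replicate number did not deviate together (r of their deviations -0.051 to 0.031, against -0.037 to 0.052 for other numbers). These values do not show whether libraries of the same number came from 1 culture. edgeR with the replicate block called 940 higher and 712 lower in Pt2A, 943 and 865 in Pt5C, and 378 and 327 in the line difference. With the spread between barcodes as error, calls fell to 564 higher and 333 lower in Pt2A, 490 lower in Pt5C, 694 and 434 in the mean of both lines, and 429 and 241 in both lines. Lost there in the mean of both lines was the call of 2xHAR.20 chimpanzee tile 1 (-0.061, adjusted p = 0.121 by a normal approximation). By the same approximation 2xHAR.20 human tile 3 (-0.099, adjusted p = 0.217) and 2xHAR.164 chimpanzee (0.091, adjusted p = 0.0612) lost theirs. With the DNA of the other line 540 elements were higher in Pt2A and 577 in Pt5C, 3 lay below the negative-control range, and class medians were 0.010 (H3K27me3), 0.031 (HAR chimpanzee) and 0.036 (HAR human). These medians were -0.011, 0.0099 and 0.015 with the TMM centre as zero, and with a pseudocount of 10 the first 2 were 0.0082 and 0.028. Without the strongest barcode, medians were 0.026 for H3K27ac positive controls and 0.015 for HAR chimpanzee. With the 99th and 1st percentiles 13 elements lay above and 2 below. In the permutation library the TMM centre gave 71 shared higher and 185 shared lower calls. Without 1 culture in turn, medians ran from -0.0084 to 0.0091 (H3K27me3), 0.014 to 0.028 (HAR chimpanzee) and 0.058 to 0.089 (EnhancerFinder). The cause of these shifts was not tested. Pt5C RNA was the shallowest, with 5410033 counts in its lowest library.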
